A study of Drosophila melanogaster with 2 samples.

Results

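The nuclear genes for subunits of the mitochondrial respiratory chain, the ATP synthase and the electron carrier cytochrome c were examined in adult Drosophila melanogaster hindguts of 2 ages. The members were the protein-coding genes whose symbols start with ND-, UQCR-, ATPsyn, COX or Sdh, or are Cyt-c-p, Cyt-c-d, Cyt-c1, RFeSP, levy or cype, and which lie on chromosome arm 2L up to 22.2 Mb or on 3L up to 5.1 Mb. This gave 23 genes of the 23932 features in the table, 20 on 2L and 3 on 3L. They comprised 11 genes of complex I, 1 of complex III, 6 of complex IV, 3 of complex V (the ATP synthase) and 2 cytochrome c genes. No gene of complex II, succinate dehydrogenase, lay in these stretches. Symbols and positions set the membership, and no change between the ages was a criterion. The members were still chosen with earlier results of these data known, so counts over them are descriptions.

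Complex I takes electrons from NADH and passes them to ubiquinone, and complex III moves them on to cytochrome c, a small soluble protein between the inner and outer mitochondrial membranes. Complex IV, cytochrome c oxidase, hands them to oxygen, and the ATP synthase uses the proton gradient built along the way. The insect hindgut is an ion- and water-transporting epithelium wrapped in muscle, and both tissues are rich in mitochondria. Many fly subunit genes are expressed in all tissues, and several have a paralog, named with a final L for "like", that in flies is known mainly from the testis.

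Every group carried the genotype bynGal4, a driver line named for the hindgut gene brachyenteron, and was reared at 25 °C. Dissection took place at emergence for the young group and, for the mature group, after a stay of 4 days at 18 °C, so that age and adult temperature cannot be told apart. Each age used 100 to 150 guts and 3 replicates. The labels name adult ileal cells, the ileum being the tubular part of the hindgut, and name the dissected tissue as adult hindgut. The hindgut patterning genes drm, bowl and cad had means of 13433, 5012 and 4806 normalized counts per the authors' deposited table. These genes changed too: drm (log2 ratio 0.96, adjusted p = 6.74e-18) and cad (0.81, adjusted p = 4.25e-06) passed toward young, and bowl (-0.29, adjusted p = 0.0137) toward mature, per the authors' deposited table. Their part in the changes of the respiratory chain genes was not tested. All values come from the authors' deposited table, which gives for each feature a mean of normalized counts over the 6 libraries and a fold change between the ages. No value for a single library was analysed here, so the spread between replicates enters only through the standard error of each fold change, and it may be technical. Changes are given as log2 ratios of young to mature, positive where young guts were higher. In whole tissue, fewer cells of a type and less RNA per cell cannot be told apart.

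Symbols could be used only on part of the genome. In the 2 stretches, 19 of 21 cytoplasmic ribosomal protein genes were tested and had means of at least 28246 normalized counts (the other 2, RpL7-like and RpS28-like, stood at 0 and 0.62), while the median of 71 such genes elsewhere was 1.17 per the authors' deposited table. The same held for the respiratory chain itself. A further 71 coding features with member symbols lay outside the stretches, where their median mean was 3.12 and 44 of them were under 10 per the authors' deposited table, against a median of 10591 for the 23 members inside. All 13 protein-coding genes of the mitochondrial genome, which encode further subunits, were listed at 0 per the authors' deposited table, so only nuclear genes are described.

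Abundant subunit genes of every complex present were higher in young guts. Of the 23 members, 19 were tested, 16 were higher in young at an adjusted p under 0.05 by the authors' DESeq2 Wald test, 1 passed in the opposite direction, and 2 did not pass. Of all 2604 tested features in both stretches, 20.7% passed toward young and 19.7% toward mature. The 16 genes higher in young were exactly the 16 members with a mean of at least 1000 normalized counts. Among the 1116 tested features of the stretches that reached this mean, 30.1% were higher in young and 28.7% in mature. The median log2 ratio was 0.64 over the 19 tested members and 0.61 over the 16 abundant ones, beside -0.0070 over the tested features and -0.0072 over the abundant features of the stretches. Of the 16 abundant members, 15 lay above 0.35, the 75th percentile of log2 ratio among abundant features. Against a fold of 1.5 in place of no change, 1 member, Cyt-c-p, passed toward young and 0 toward mature. The largest log2 ratio of a ribosomal protein gene was 0.31, and 15 of the 16 abundant members exceeded it.

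**Figure D1:**
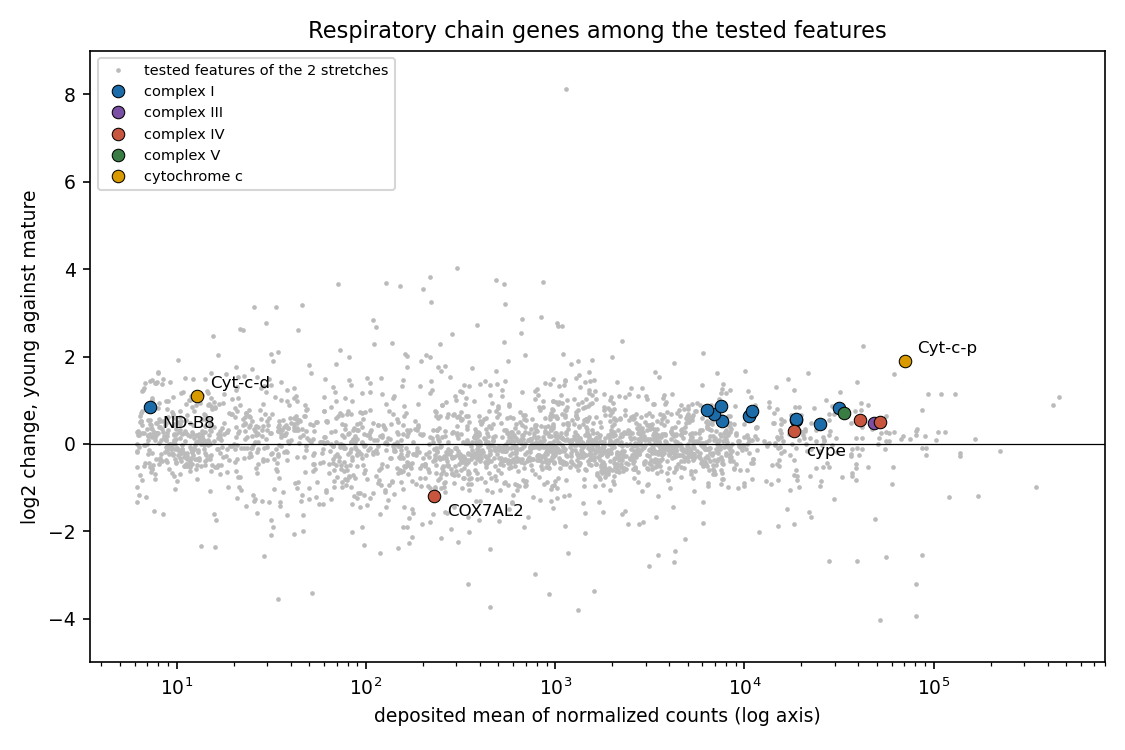
Log2 change of young against mature (vertical axis) against the deposited mean of normalized counts (horizontal, log axis) for the 2604 tested features of the stretches (grey) and the 19 tested members (coloured by complex). The 16 members with a mean of at least 1000 all lie above 0, Cyt-c-p lies at 1.90, and COX7AL2 is the one member below 0.

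The change was moderate for the complexes and larger for cytochrome c. Summed over the 23 members, the means came to 407927 normalized counts, or 3.37% of the summed mean of the stretches. A mean for each age can be implied from the deposited mean and fold change if the 3 libraries of each age weigh equally. This is an approximation with no error of its own, and any shrinkage of fold changes in the authors' fit would narrow it. So computed, the members summed to 514715 normalized counts in young and 301140 in mature guts. Without Cyt-c-p, the abundant members summed to 403415 and 270932.

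Cyt-c-p encodes the cytochrome c of somatic cells, and it had the largest change. The gene (2L, 16719932 to 16722644, BDGP6) had a mean of 70504 normalized counts, the 28th highest of the 5237 features in the stretches, per the authors' deposited table. Its implied means were 111133 normalized counts in young and 29875 in mature guts. It was 3.72-fold higher in young, with a log2 ratio of 1.90, a standard error of 0.10 and an adjusted p of 2.36e-78 per the authors' deposited table. Among the 1116 abundant features it ranked 11th toward young. The next subunit gene, ND-15, lay 1.02 lower on the log2 scale (95% Wald interval of the difference 0.73 to 1.31), and RFeSP, whose complex reduces cytochrome c, lay 1.42 lower (1.16 to 1.69). These intervals treat the errors of both genes as independent although they come from the same libraries. With 16 abundant members to choose from, ND-15 was picked for its rank.

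Complex I genes were higher in young guts in 10 of 11 cases, and the remaining gene did not pass. Their log2 ratios ran from 0.46 to 0.87 among the 10 abundant genes, with a median of 0.66. The standard deviation between these 10 genes was 0.14, and the median standard error of a single gene was 0.10. In the matrix arm, where NADH is oxidized, ND-51 encodes the subunit that binds NADH and flavin. It had a mean of 25113 normalized counts and the lowest log2 ratio of the complex, 0.46 with a standard error of 0.10, per the authors' deposited table (adjusted p = 2.29e-05). ND-30, a core subunit of the same arm, had a mean of 18808 and a log2 ratio of 0.58 with a standard error of 0.10 per the authors' deposited table (adjusted p = 1.61e-08). The accessory genes ND-13A and ND-B17.2 had means of 6324 and 7626 normalized counts and log2 ratios of 0.77 and 0.54 per the authors' deposited table (adjusted p = 2.58e-11 and 2.01e-07).

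The membrane arm pumps protons, and its members here are all accessory subunits. ND-15 had a mean of 7524 normalized counts and the highest log2 ratio of the complex, 0.87 with a standard error of 0.11, per the authors' deposited table (adjusted p = 2.35e-14). ND-B22, ND-B17 and ND-B14.5B had means of 10950, 10591 and 6912 and log2 ratios of 0.76, 0.64 and 0.68 per the authors' deposited table (adjusted p = 6.04e-14, 5.82e-09 and 3.58e-07). ND-PDSW had a mean of 18790 and a log2 ratio of 0.54 per the authors' deposited table (adjusted p = 7.89e-06). The median log2 ratio was 0.68 over these 5 genes and 0.56 over the 4 abundant matrix arm genes, and the ranges overlapped, 0.54 to 0.87 against 0.46 to 0.77. Between the ends of the complex, ND-15 exceeded ND-51 by 0.41 (95% Wald interval 0.13 to 0.70), a pair chosen for its distance. ND-ACP encodes the mitochondrial acyl carrier protein, which sits in complex I and also serves lipid and iron-sulfur cluster synthesis. Its mean of 31462 normalized counts was the highest of the complex and its log2 ratio was 0.81 with a standard error of 0.09 per the authors' deposited table (adjusted p = 2.04e-18).

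ND-B8, the remaining complex I gene, stood apart by its level. It encodes an accessory subunit of the matrix arm (2L, 4454626 to 4455207) and had a mean of 7.25 normalized counts per the authors' deposited table, whereas the other 10 complex I genes started at 6324. Its log2 ratio was 0.84 with a standard error of 0.51 and did not pass (adjusted p = 0.225 per the authors' deposited table). The 8 coding genes nearest to it, 4 on each side, had means of 205 to 80380 per the authors' deposited table. Of its 460 exonic bases, 15.4% also lie in exons of Gs1l on the opposite strand, which had a mean of 5498 per the authors' deposited table. Whether its reads were counted elsewhere, or whether the row carries the values of another gene, as may hold for symbols outside the stretches, was not tested. The mean and log2 ratio are therefore those of the row listed under the ND-B8 identifier.

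**Figure D2:**
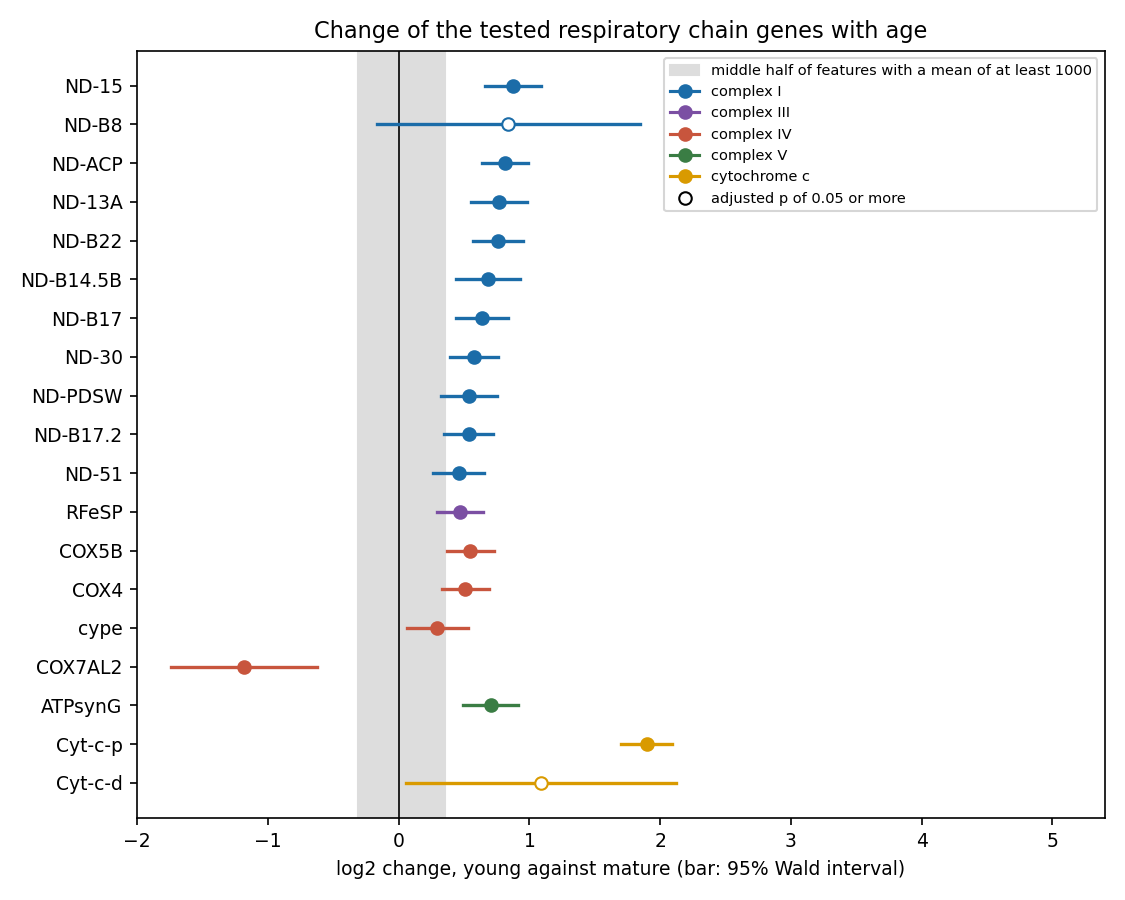
Log2 change of young against mature (horizontal axis) for the 19 tested members, grouped by complex, with 95% Wald intervals as bars. Filled points passed an adjusted p of 0.05, open points did not. The grey band spans -0.31 to 0.35, the interquartile range of the 1116 features with a mean of at least 1000. Intervals of all 16 abundant members lie above 0, while those of Cyt-c-d and ND-B8 are several times wider.

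Complexes III, IV and V were represented by few genes, and each abundant one was higher in young. RFeSP encodes the Rieske iron-sulfur protein, which passes electrons inside complex III. It had a mean of 48211 normalized counts and a log2 ratio of 0.47 with a standard error of 0.09 per the authors' deposited table (adjusted p = 1.16e-06). In complex IV, COX4 and COX5B are nuclear subunits that surround the catalytic core encoded by the mitochondrial genome. COX4 had a mean of 52301 and a log2 ratio of 0.51 with a standard error of 0.09 per the authors' deposited table (adjusted p = 1.62e-07). COX5B had a mean of 40983 and a log2 ratio of 0.55 with a standard error of 0.09 per the authors' deposited table (adjusted p = 2.75e-08).

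The smallest change of an abundant member was that of cype, which encodes the subunit known in mammals as COX6C. It had a mean of 18178 normalized counts and a log2 ratio of 0.30 with a standard error of 0.12 per the authors' deposited table (adjusted p = 0.0408). When all changes were recentred on the ribosomal protein genes of the stretches, whose median log2 ratio was 0.17, cype stood at 0.12 and lost its call (adjusted p = 0.462), whereas the other 15 abundant members remained higher in young. The cype call was also lost with no low-mean filter (adjusted p = 0.0583). The difference from its partners in the complex was not resolved, at 0.21 for COX4 (95% Wald interval -0.079 to 0.51) and 0.25 for COX5B (-0.043 to 0.55). ATPsynG encodes subunit g of the membrane part of the ATP synthase, where in yeast it is known for holding enzyme dimers together. Its mean was 33402 normalized counts and its log2 ratio 0.70 with a standard error of 0.11 per the authors' deposited table (adjusted p = 1.12e-09). The median log2 ratio over the 3 abundant complex IV genes was 0.51 (0.40 over the 4 tested, COX7AL2 included), beside 0.66 for the 10 of complex I, and the ranges 0.30 to 0.55 and 0.46 to 0.87 overlapped.

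Levels per length differed more between genes than ages did. Per kilobase of annotated exon, Cyt-c-p had the highest mean of the members, 103530 normalized counts per kb. Complex IV genes followed, with 56218 per kb for COX5B, 42486 for COX4 and 34823 for cype. RFeSP at 43122 and ATPsynG at 42335 lay in the same range. The 10 abundant complex I genes ran from 6629 per kb for ND-15 to 37365 for ND-ACP, with a median of 11624. Of these, only ND-ACP exceeded cype. The level of Cyt-c-p was implied at 163191 per kb in young and 43870 per kb in mature guts. In mature guts it was thus implied close to COX5B, at 45669 per kb, whereas in young guts COX5B was implied at 66766. The reads behind these values were assigned with an annotation that may differ from the one used here for lengths, and no error is attached to a level.

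**Figure D3:**
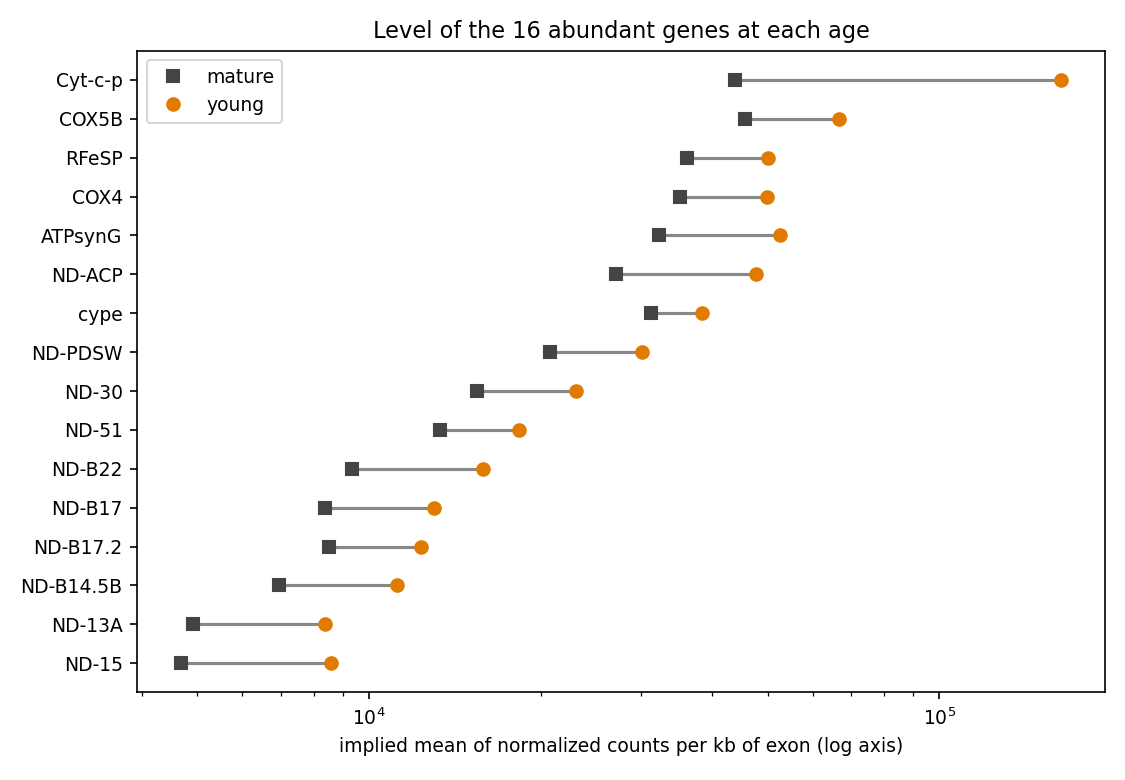
Implied mean of normalized counts per kb of exon (horizontal, log axis) in young (circles) and mature (squares) guts for the 16 members with a mean of at least 1000, ordered by their mean per kb. The means are implied from the deposited mean and fold change and carry no error bars. Cyt-c-p lies at 163191 in young and 43870 in mature, and for every gene the young value is to the right.

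Of 6 rare paralogs, 1 passed toward mature, 1 did not pass and 4 were listed at 0. Whether a listed 0 is a low level was not tested, and it is not read as one here. PolG2 in the stretches, a gene that all cells use, was also listed at 0, but all of its exonic bases are shared with other genes. SdhB and ATPsynC, also listed at 0, lie outside the stretches, where symbols could not be used. These genes therefore cannot show what a 0 means for COX6CL, ATPsynGL and ATPsynCF6L, which share no exonic base with another gene. COX7AL2, a like-gene of complex IV subunit 7A (2L, 2192525 to 2197912), had a mean of 229 normalized counts per the authors' deposited table. Its implied means were 140 in young and 318 in mature guts. It was 2.27-fold higher in mature, with a log2 ratio of -1.18, a standard error of 0.29 and an adjusted p of 0.000219 per the authors' deposited table. The abundant complex IV genes differed from it by 1.48 (cype, 95% Wald interval 0.87 to 2.09) to 1.73 (COX5B, 1.14 to 2.32) on the log2 scale. Its own main gene, COX7A, lies outside the stretches and was not used here. No exonic base of COX7AL2 is shared with another gene. Against a fold of 1.5 its adjusted p was 0.406, so its call was lost as were 15 of the 16 toward young.

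Cyt-c-d is the cytochrome c gene that fly spermatids need for their final maturation. It lies 296 bases from Cyt-c-p on the same strand (2L, 16715891 to 16719635) and had a mean of 12.9 normalized counts per the authors' deposited table, against 70504 for its neighbour. Per kb of exon the means were 15.4 and 103530. Its log2 ratio of 1.09 with a standard error of 0.53 did not pass (adjusted p = 0.104 per the authors' deposited table). Cyt-c-p exceeded it by 0.81, with a 95% Wald interval of -0.24 to 1.86, so a difference between the paired genes was not resolved. At so low a mean the fold change of Cyt-c-d may be shrunk toward 0 (not tested), and the interval does not allow for that. Of its exonic bases, 36.4% are shared with CG31808 on the opposite strand, which had a mean of 14709 per the authors' deposited table. The strand setting of the counting is not given in the sources used here.

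COX5BL, COX6CL, ATPsynGL and ATPsynCF6L were each listed at a mean of 0 and had no fold change per the authors' deposited table. COX5BL lies 122 bases from COX5B on the same strand, and all of its 647 exonic bases are shared with Trmt6 on the opposite strand, and whether its reads were left uncounted was not tested. COX6CL, ATPsynGL and ATPsynCF6L share no exonic base with another gene. Their main genes cype and ATPsynG had means of 18178 and 33402 per the authors' deposited table, while the main gene of ATPsynCF6L lies outside the stretches. Among the abundant members, 5 of 16 share exonic bases with another gene, over 6.10% to 26.1% of their length, and the other 11 share none.

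**Figure D4:**
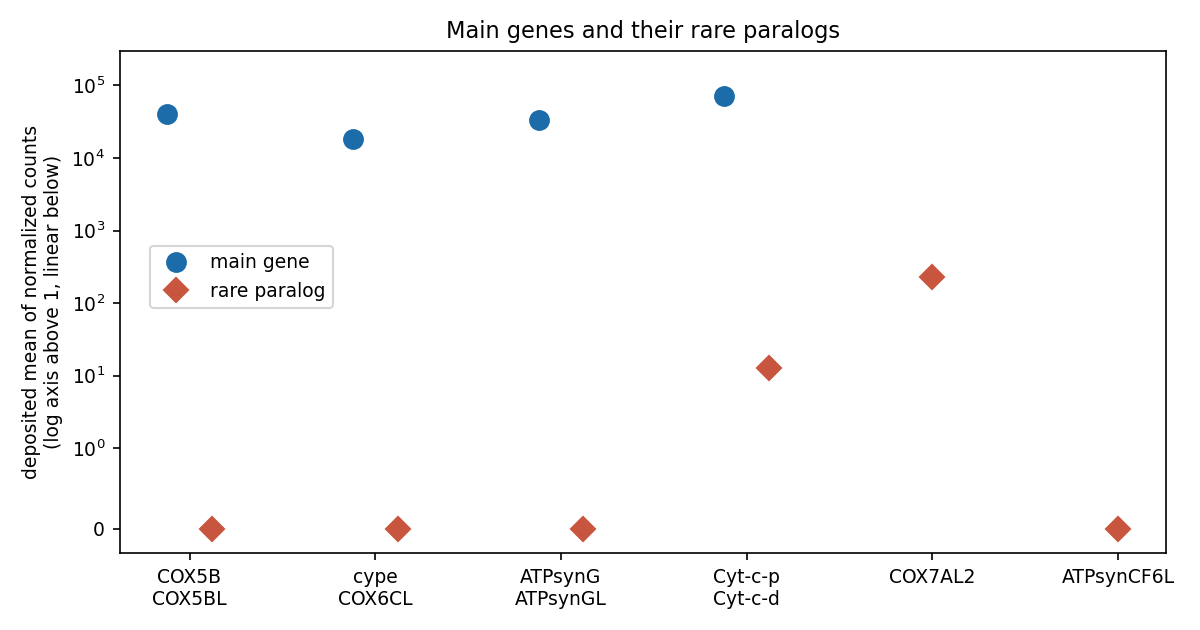
Deposited mean of normalized counts (vertical axis, logarithmic above 1 and linear below) for main genes (circles) and rare paralogs (diamonds). Main genes lie between 18178 and 70504, COX7AL2 at 229 and Cyt-c-d at 12.9, and the other 4 paralogs are listed at 0. COX7AL2 and ATPsynCF6L are shown alone because their main genes lie outside the stretches.

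Genes that build the complexes changed in the same direction as the subunits, with 1 exception. Of 9 assembly and maturation genes tested in the stretches, 8 passed toward young and 1 toward mature, with a median log2 ratio of 0.78. Of all tested features, 20.7% passed toward young and 19.7% toward mature. The lowest mean of the 9 genes was 972. Among features with a mean of at least 1000, the shares were 30.1% and 28.7%. Against a fold of 1.5, 1 of the 8 passed. Cox10, which makes the heme of complex IV, had a mean of 6514 normalized counts and a log2 ratio of 0.86 with a standard error of 0.08 per the authors' deposited table (adjusted p = 1.88e-25). Sirup, which assembles succinate dehydrogenase, had a mean of 1392 and a log2 ratio of 0.96 per the authors' deposited table (adjusted p = 1.62e-12). The remaining 6 genes higher in young had log2 ratios of 0.49 to 1.03 per the authors' deposited table. They were Scox and Cox11 (copper delivery to complex IV), Bcs1 and Ttc19 (complex III), bsf (a mitochondrial RNA-binding protein) and l(2)k14505. Nubpl, known in humans to supply iron-sulfur clusters to complex I, was higher in mature guts, at a mean of 2626 and a log2 ratio of -0.55 with a standard error of 0.09 per the authors' deposited table (adjusted p = 2.23e-08). It lies at the right end of the 2L stretch (22239916 to 22246988).

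Genes of ubiquinone and of transport across the mitochondrial membranes are read against all tested features, of which 20.7% passed toward young and 19.7% toward mature. For features with a mean of at least 1000, the shares were 30.1% and 28.7%. Of 3 tested ubiquinone genes, Sqor, which passes electrons from sulfide to ubiquinone, was higher in young (log2 ratio 0.35, adjusted p = 0.000789 per the authors' deposited table) and lost its call after recentring. The synthesis genes Coq6 and Coq3 had log2 ratios of 0.24 and 0.20 and did not pass (adjusted p = 0.0648 and 0.384 per the authors' deposited table). Of 5 tested carrier and channel genes, 2 passed toward young and 1 toward mature, the latter being close to the share over all tested features. The outer membrane channel gene porin, at a mean of 86760 normalized counts, had a log2 ratio of 0.78 with a standard error of 0.08 per the authors' deposited table (adjusted p = 5.07e-23). The acylcarnitine carrier gene colt had a log2 ratio of 0.55 per the authors' deposited table (adjusted p = 1.59e-07). Rim2, a carrier of pyrimidine nucleotides, had a log2 ratio of -0.24 per the authors' deposited table (adjusted p = 0.0253), and MME1, a magnesium exporter, also of -0.24 (adjusted p = 0.136), which passed after recentring.

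A list of genes for the copying and transcription of mitochondrial DNA, which also held the protease gene ClpP, had 5 tested members. The RNA polymerase gene PolrMT (log2 ratio 0.47, adjusted p = 0.000379 per the authors' deposited table) and the termination factor gene mTTF (0.44, adjusted p = 0.00825) passed toward young, and none passed toward mature, beside 20.7% and 19.7% of all tested features. Both genes had means above 1000, and for features with a mean of at least 1000 the shares were 30.1% and 28.7%. PolG1, the DNA polymerase, and mtDNA-helicase had log2 ratios of -0.47 and -0.32 and did not pass (adjusted p = 0.101 and 0.140 per the authors' deposited table). After recentring, mTTF no longer passed and PolG1 and mtDNA-helicase were higher in mature. ClpP had a log2 ratio of 0.21 (adjusted p = 0.0904 per the authors' deposited table). The 1 antioxidant gene tested, the thioredoxin gene Trx2, was higher in mature at a mean of 18182 and a log2 ratio of -0.37 per the authors' deposited table (adjusted p = 0.000241).

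**Figure D5:**
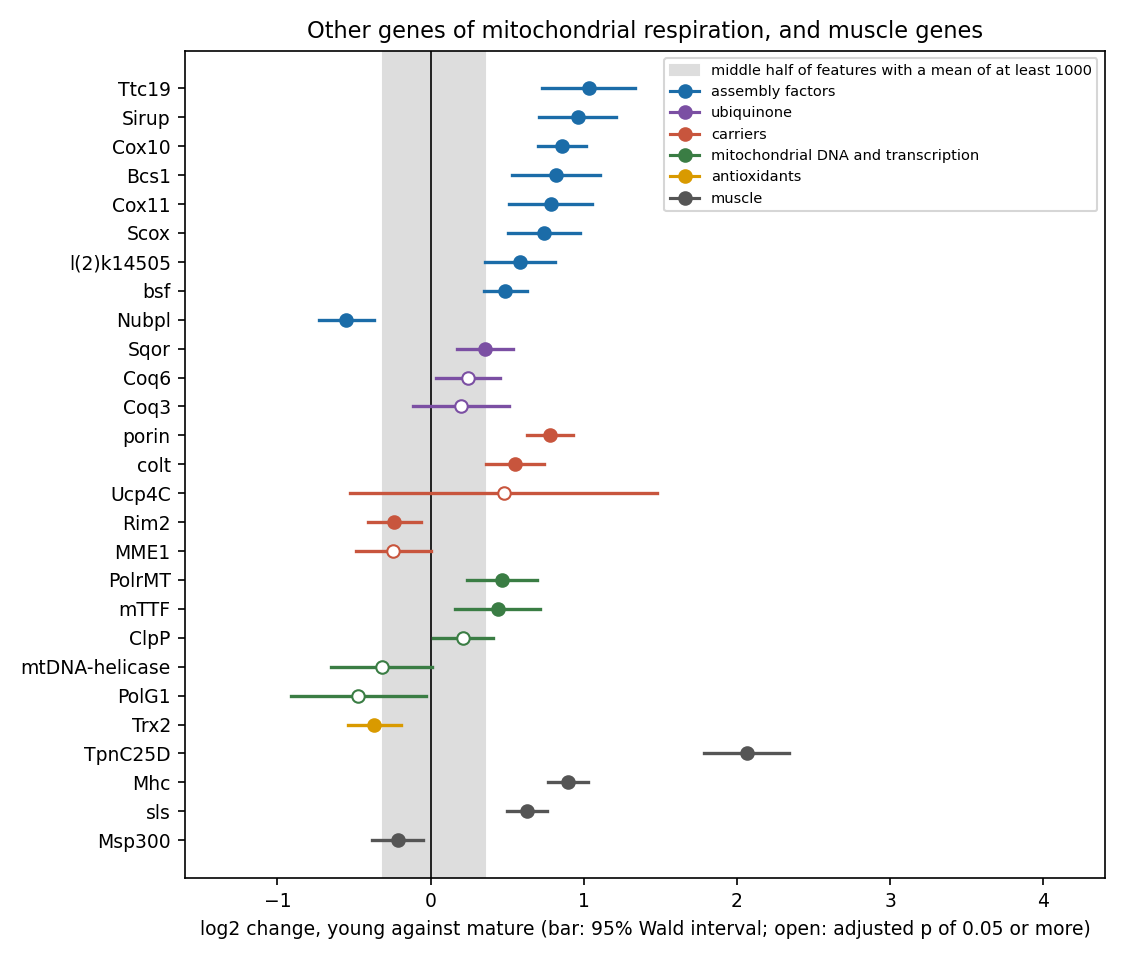
Log2 change of young against mature (horizontal axis) with 95% Wald intervals for the tested genes of 5 further lists and for muscle genes. The 5 lists are assembly factors, ubiquinone, carriers, mitochondrial DNA and transcription, and antioxidants. Filled points passed an adjusted p of 0.05, and the grey band spans -0.31 to 0.35 as for the subunits. Assembly genes lie at 0.49 to 1.03 except Nubpl at -0.55, and the muscle genes run from -0.21 for Msp300 to 2.06 for TpnC25D.

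Markers of other cells are set against the same shares of all tested features, 20.7% toward young and 19.7% toward mature. The muscle genes all had means above 1000, and for features with a mean of at least 1000 the shares were 30.1% and 28.7%. Of 4 muscle genes in the stretches, with a summed mean of 622241 normalized counts, 3 were higher in young, namely the troponin C gene TpnC25D (log2 ratio 2.06), the myosin gene Mhc (0.90) and sls (0.63), whereas Msp300 passed toward mature (-0.21), per the authors' deposited table. Of 10 testis genes, with a summed mean of 470, 4 were listed at 0 and 3 were tested; twe was higher in mature, at a mean of 176 and a log2 ratio of -1.48 per the authors' deposited table (adjusted p = 0.0185). All 3 fat body genes, at means of 69.8 to 109 per the authors' deposited table, were higher in young. Of 3 hemocyte genes, NimC1 and Sr-CI were higher in young, at means of only 26.6 and 35.7 and log2 ratios of 1.54 and 1.43. The third, crq, was higher in mature, at a mean of 8852 and a log2 ratio of -0.57, per the authors' deposited table. Of 2 tested midgut genes 1 was higher in mature, Jon25Bi at a mean of 26.5. None of 3 tubule genes passed, with log2 ratios of -1.16 (Uro), 0.77 (ZnT35C) and -0.016 (Irk3) per the authors' deposited table. Their standard errors were 0.52, 0.35 and 0.50, so a change of these genes was not resolved. A further midgut gene, Jon25Biii, had the highest mean of the midgut list, 778. Its log2 ratio was -0.46, with no p-value given, per the authors' deposited table. The part of these cells in the changes of the respiratory chain genes was not tested.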

How the data were processed

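RNA of young and mature hindguts was extracted with Trizol and sequenced in pairs on a NovaSeq, per the labels' protocols. Among what the authors used, the submitters' processing notes name HISAT2, Trim Galore, BDGP6 and DESeq2, with no versions. Which program counted reads, with which strand setting and annotation, is not given in the sources used here. The authors' deposited table holds a mean of normalized counts (a signal, never negative), a log2 fold change with its standard error, a Wald score, and a p-value with its Benjamini-Hochberg adjusted value, per the file headers. The header gives no base for the logarithm, and base 2, the default of the tool the authors used, was assumed. An adjusted p exists for 10458 of 23932 features. The lowest mean with one was 6.11 and the largest standard error 0.53, so low genes may carry fold changes shrunk toward 0 (not tested). Library depths were not analysed here, and the means sum to 2.94e+07.

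The planned edgeR fits could not be run without a count for every library, so the authors' DESeq2 values stand as the test. Symbols, positions and exon lengths come from Ensembl release 115 of BDGP6, which held 23851 of the identifiers; older symbols were matched through RefSeq synonyms. The members and lists were chosen with earlier results of these data known, so counts over them are descriptions. By rule, every member was named, with full values for means of at least 1000 and for paralogs, and of other lists the 2 smallest p in each direction or those needed for a count of 5 or fewer; further list genes and the gene pairs were named after their values were seen. Recentring on the median of all tested features, the Wald test against a fold of 1.5 and the adjustment were tested on simulated data. Recentring on the ribosomal protein genes or on abundant protein-coding features was not simulated. Tables were handled with pandas 2.3.3 and numpy 2.4.6 under Python 3.11.15, intervals with scipy 1.17.1, and figures with matplotlib 3.10.9.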

Additional observations from a re-analysis of the deposited data

How the results depend on the processing

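Of 16 members higher in young guts, 15 or 16 were so under a stricter adjusted p of 0.01, no low-mean filter, adjustment over the stretches alone, both recentrings and a mean of at least 1000, while leaving out members that overlap another gene left 11. Against a fold of 1.5, 1 member (Cyt-c-p) was higher in young and 0 in mature, and among members with a mean of at least 1000, 0 were higher in mature. Recentring on ribosomal protein genes lowered the median log2 change over tested members from 0.68 to 0.51 for complex I and from 0.40 to 0.23 for complex IV; with it 2 carriers were higher in mature, 2 genes of mitochondrial DNA and transcription were higher in mature and 1 in young, and 0 ubiquinone genes were higher in young. At an adjusted p under 0.01, 0 carriers and 0 muscle genes were higher in mature, and with no low-mean filter 0 muscle genes were. Against a fold of 1.5, 1 assembly gene was higher in young and 0 in mature, with 0 carriers, 0 ubiquinone genes and 0 genes of mitochondrial DNA and transcription higher in young, and 0 carriers and 0 muscle genes higher in mature. Of 114 values for the 19 tested members under 6 alternatives, 95 kept their side of the threshold and 0 reversed. Recentring on abundant protein-coding features shifted values by -0.0011. Leaving out members overlapped over more than 50% of their exons was chosen after seeing the data. Fits without each replicate, other count normalizations and filters were not run. No paired analysis was possible because the columns hold no value per library. At means near 10, standard errors near 0.5 limit ND-B8 and Cyt-c-d.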

Other observations

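Outside the 2 stretches, symbols of the respiratory chain stood at other levels, and these rows were used in no comparison. Symbols could not be relied on there, so each value is that of the row listed under the symbol and may belong to another gene. ND-18 on X had the highest mean of the 71, 60572 normalized counts, with a log2 ratio of 0.34 per the authors' deposited table. Cyt-c1 on 3L had a mean of 2322 and a log2 ratio of 0.40, and COX7C on 2R a mean of 469 and a log2 ratio of -0.95, per the authors' deposited table. Means of 0 were listed for 26 of these 71 features. Neither of the authors' lists of 132 young and 91 mature features holds a member; the smallest log2 ratio of the young list was 1.96, and Cyt-c-p stood at 1.90.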
